A study of Mus musculus with 24 samples.

Results

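The genes described here are 37 mouse genes known as imprinted, or as close neighbours of imprinted genes, in 20 domains outside the Dlk1-Dio3 cluster and the distal chromosome 7 domains. They were found by matching each gene identifier of the count table to GENCODE M21 symbols, and all 37 were present among 48985 gene rows. RNA was measured in 24 libraries of female F1 hybrid embryonic stem cells, which carry 129/Sv and CAST/EiJ chromosomes. Each library was counted per allele, so a gene has a 129S1 and a CAST count in every library. The cells were grown without serum on gelatin, with leukaemia inhibitory factor (LIF) and inhibitors of the kinases MEK and GSK-3, and all groups shared this medium.

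Recombinations called d3, d6, i7, i10 and i12 each had a parental line, labelled as control, and 1 or 2 recombined clones. For d3 these were clone 12 and clone 21, for d6 it was clone 16, for i7 clone 7 and clone 12, for i10 clone 18 and for i12 clone 10. The 5 parental lines and 7 clones had 2 libraries each, described as biological duplicates with no further word on how they were grown. A p-value therefore measures the spread between these libraries, and each recombined line is a single clone. The labels write the cross with CAST/EiJ first and do not say which strain was the mother. Shares are therefore given by strain and not by parent.

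At many imprinted genes, the copy from 1 parent is silenced under the control of a methylation mark laid down in the germ line. Within a domain, a marked control region usually sets which of several neighbours is read from the father's or the mother's copy. In mouse embryonic stem cells such marks are held by zinc finger proteins such as ZFP57 with the corepressor TRIM28 and the methyltransferase DNMT1. Growth with MEK and GSK-3 inhibitors is known to lower DNA methylation in these cells. Methylation itself was not analysed here.

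Library totals ran from 3286819 to 15581094 counts, and the 129S1 columns held 48.3% to 49.6% of the autosomal counts. Mitochondrial transcripts, whose genome comes from the mother, were 89.5% to 94.3% 129S1 in each library. By gene, 9 of the 13 mitochondrial genes were at least 99.7% 129S1, and mt-Co1 (77.3%) and mt-Nd5 (82.8%) held 98.8% of the mitochondrial CAST counts. The 8 markers of naive embryonic stem cells summed to 6046 to 8540 CPM (counts scaled by the effective size of the whole library). Markers of other cells summed to 3.36 to 12.5 CPM for primitive endoderm, 1.38 to 20.9 for trophoblast and 3.93 to 25.7 for feeder fibroblasts. The fibroblast markers Dcn, Lum, Postn and Col3a1 had at most 1 count in any library. The others of that list were higher, with 11 to 317 counts per library for Thy1, 1 to 42 for Col1a1 and 0 to 11 for Col1a2. The 4 markers of formative and primed cells summed to 29.3 to 242 CPM, most of it from Dnmt3b.

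Of the 37 genes, 30 passed the low-count filter and were tested in total counts, and 22 had a mean of at least 20 counts per library and were tested in the allelic ratio. Magel2 and Kcnk9 had no count in any library, where a count of 0 allows up to 3 counts per library. Nnat had 1 count over all 24 libraries, Rasgrf1 3, Airn 16, Cdh15 33 and Nespas 103, and these 7 genes entered no test. Sgce, Ndn, Mkrn3, Zim1, Grb10, Gnas, Peg12 and Usp29 were tested in total counts only, with 104 to 472 counts each over all libraries. Where a library gave at least 10 counts, the 129S1 share of these 8 genes lay between 14.3% in a Grb10 library and 71.4% in a Mkrn3 library. Summed over libraries, Sgce was 53.4% 129S1, Ndn 51.0%, Mkrn3 53.5%, Zim1 47.9%, Usp29 45.8%, Grb10 43.5%, Peg12 40.6% and Gnas 37.3%, so both alleles of each were counted.

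The first question was whether these genes were read from 1 allele in the parental lines. By these counts they mostly were not, as was so for most genes. Of the 21 genes with at least 10 counts in all 10 parental libraries, 20 had a 129S1 share between 10% and 90% in every one. Over all 11330 genes with that coverage, 83.4% did so. A share of at least 80% or at most 20% in all 10 libraries was found for 1 of the 21, against 13.8% of all genes. A share of 30% to 70% in all 10 libraries was found for 9 of the 21, against 57.6% of all genes. These 9 were Gab1, Igf2r, Impact, Inpp5f, Jade1, Peg3, Peg10, Trappc9 and Zrsr1. The median share of a gene was 50.3% in both sets. The labels give no imprinting state for these loci. Some of the 21 are known as imprinted only in some isoforms or tissues, or as neighbours, and need not be read from 1 allele here. The other genes had counts from both alleles in every parental library. How reads without an informative variant were counted is not given, so the shares do not settle the imprinting state of a gene.

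**Figure D1:**
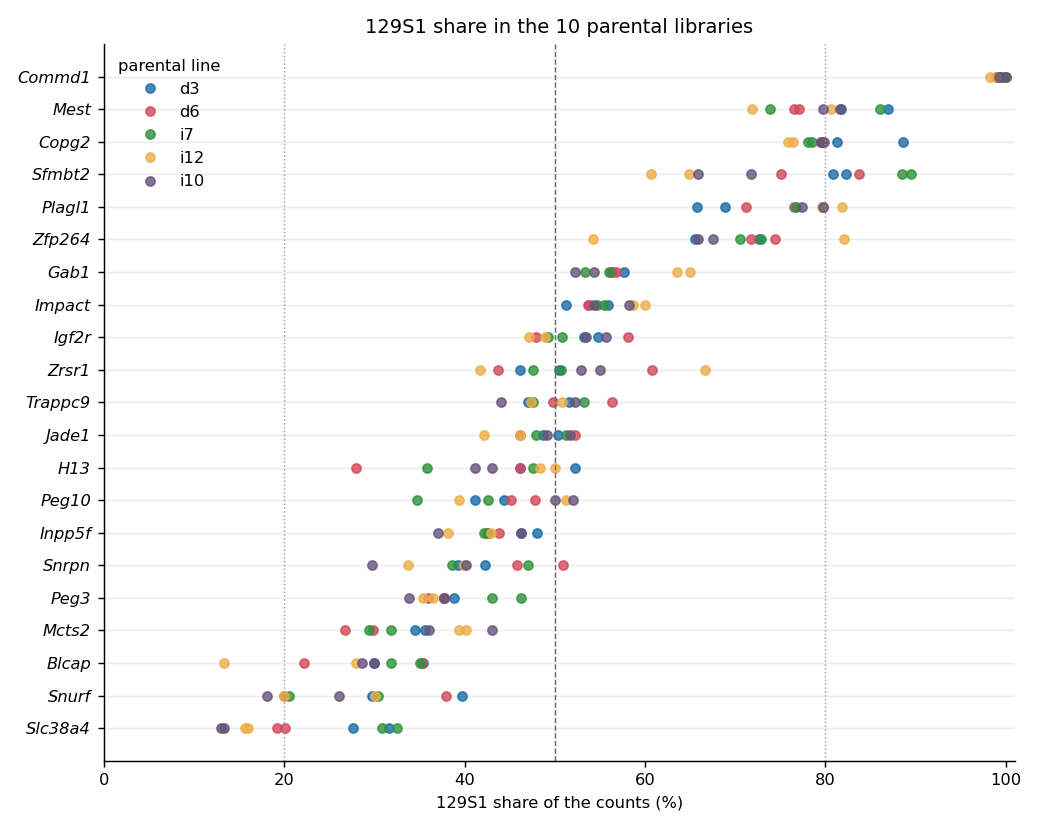
The 129S1 share of the counts (x axis, percent) of the 21 genes with at least 10 counts in all 10 parental libraries, with 1 point per library coloured by parental line. The dashed line marks 50% and the dotted lines 20% and 80%. Commd1 is the gene that stays beyond a dotted line in all 10 libraries. Slc38a4 and Sfmbt2 differ between lines, though d3 overlaps i7 for Slc38a4 and d6 for Sfmbt2.

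Commd1 was the exception. It encodes a protein of copper handling and NF-kB turnover, and it lies at chromosome 11, 22896136 to 22982382 (GRCm38, minus strand). Its 129S1 share in the parental libraries was 98.3% at the lowest and 99.3% at the median, and the highest libraries had no CAST count. In the clones the share was at least 98.2%. Of 5724 counts over all 24 libraries, 47 were CAST, with 0 to 7 in any library. The gene was thus counted from 129S1 in every line, parental or recombined. Zrsr1, a retrogene for a splicing factor that lies inside Commd1 on the opposite strand and is known as paternally expressed, showed nothing of the kind. Its share in the parental libraries had a lowest value of 41.7%, a median of 50.6% and a highest value of 66.7%, on 34 to 103 counts per library. Over all genes with that coverage, 13.8% had a share of at least 80% or at most 20% in all 10 parental libraries. Pou5f1, which is not imprinted, had a median 129S1 share of 0.404% over the 24 libraries. What gives Commd1 its share was not tested.

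Equality of the 129S1 and CAST alleles was then tested over the 5 parental lines (edgeR quasi-likelihood test, Benjamini-Hochberg adjusted p under 0.05). It was called for 19 of the 22 genes, against 73.3% of all 12774 genes tested, so unequal alleles were common in both. At an unadjusted p under 0.05 there were also 19, against 75.0%. The ratio was higher for 129S1 in 9 genes and lower in 10, beside 34.7% and 38.6% of all genes. Igf2r, Trappc9 and Zrsr1 were not called. In log2, the ratio of the genes higher for 129S1 ran from 0.29 (Impact) to 1.95 (Copg2), with Commd1 beyond it at 7.19. In the other direction it ran from -0.12 (Jade1) to -1.95 (Slc38a4).

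The direction did not follow the parent from which a gene is known to be expressed. Of the 11 tested genes known as paternally expressed in most tissues, 5 were higher for 129S1 (Mest, Plagl1, Zfp264, Peg13 and Impact). Another 5 were higher for CAST (Snurf, Mcts2, Peg3, Snrpn and Peg10), and Zrsr1 was not called. The median log2 ratio of the 11 was 0.03. All 5 tested genes known as paternally expressed in some isoforms or tissues were called, Sfmbt2 and Gab1 higher for 129S1, and Slc38a4, Inpp5f and Jade1 higher for CAST. Of the maternally expressed genes, Igf2r, the receptor that clears IGF2, had a parental share of 47.1% to 58.1% with a median of 52.0%. H13, a signal peptide peptidase, had 28.0% to 52.2% with a median of 46.2%.

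Genes that share a domain often differed. Mest, a hydrolase family gene, and Copg2, a coatomer subunit gene that overlaps its end on the opposite strand by 912 bases, were both near 80%. The parental shares of Mest were 71.9% to 86.9% with a median of 80.2%, and those of Copg2 75.9% to 88.6% with a median of 79.5%. In the Peg3 domain, by contrast, the zinc finger gene Peg3 had 33.9% to 46.3% and its neighbour Zfp264 had 54.2% to 82.1%, with no overlap between the genes. Snurf, an upstream reading frame in the same transcripts as Snrpn, had 18.1% to 39.7%, and Snrpn, a splicing protein gene, 29.7% to 50.9%. Their spans share 9601 bases on the same strand, so reads may have been split between them. Mcts2, a retrogene inside H13 on the same strand, had 26.7% to 43.1%. Blcap, whose span holds Nnat, had 13.3% to 35.4%. Whether counting used the strand is not given in the sources used here, so reads of overlapping genes on opposite strands may not be told apart.

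The surroundings of each domain are given as a description. For every domain, the median 129S1 share of up to 10 nearest well-covered protein-coding genes was taken in each library, and its median over libraries ran from 42.0% at Igf2r to 57.4% at Impact. Around Slc38a4 these medians were 50.6% to 55.3% over the 24 libraries, and around Sfmbt2 50.3% to 56.7%. Around Mest and Copg2 they were 45.4% to 56.4%. A median over several genes tends to lie nearer to 50% than single genes, so these values were not set against those of the members.

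The test against equality rested on single libraries for a few genes near it. Without d6 parental replicate 2, the adjusted p of Jade1 was 0.102, and it was also lost without d3 parental replicate 2, i7 parental replicate 1, i12 parental replicate 2 or i10 parental replicate 1. H13 was lost without i7 parental replicate 1 (adjusted p 0.0614) or i12 parental replicate 1 (0.0594), and Peg13 without i12 parental replicate 1 (0.0938).

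The second question was whether the parental lines differed from each other before any clone was compared. In the allelic ratio 4 of the 22 genes were called, Slc38a4, Plagl1, Sfmbt2 and Gab1, against 1.05% of all genes. At an unadjusted p under 0.05 there were 8, against 13.4%. All 4 are autosomal genes known as paternally expressed, 3 of them only in some isoforms or tissues. The i10 and i12 parental libraries held fewer counts, 3286819 to 5189267 against 6345947 to 12263924 in the other parental libraries. Naive marker sums were 6046 to 6966 CPM in all i10 and i12 libraries, clones included, and at least 7134 in every other library. Whether depth or cell state has a part in the differences between lines was not tested.

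Slc38a4, an amino acid transporter gene known for imprinting in placenta and liver, had the clearest difference. Its 129S1 share was 31.6% and 27.6% in d3 and 30.8% and 32.5% in i7 parental cells. In the d6 parental line it was 20.1% and 19.2%, in i12 16.0% and 15.7%, and in i10 13.3% and 13%. The CAST allele was the larger in all 10 libraries, the d3 and i7 lines overlapped each other, and the other 3 lines each stood apart from all the rest. The F test gave an adjusted p of 5.42e-07 in edgeR. The 129S1 level ran from 18.5 to 111 CPM over these libraries, and the CAST level from 121 to 230 CPM.

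Sfmbt2, a Polycomb group gene known for paternal expression in early embryos and placenta, had the opposite bias. Its 129S1 share was 88.5% and 89.5% in the i7 parental line, 80.9% and 82.3% in d3 and 75.1% and 83.7% in d6. It was 71.8% and 65.9% in i10 and 64.9% and 60.7% in i12. The i7 line was above all others, and the i10 and i12 lines were below the other 3 (adjusted p 0.00405). The low shares rest on fewer reads: the 95% Wilson interval of i12 parental replicate 2, with 61 counts, was 48.1% to 71.9%. These intervals cover counting error only, since no molecular identifiers are described.

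Plagl1, a zinc finger transcription factor gene with a germ line methylation mark at an internal promoter, was 129S1-biased in all lines. The d3 parental libraries had shares of 65.8% and 68.9%, and those of d6 71.2% and 76.5%. It was 79.7% and 76.7% in i7, 79.7% and 77.4% in i10 and 81.8% and 79.6% in i12. The d3 libraries were below the other 8 (adjusted p 0.00278). Gab1, an adaptor of growth factor receptors, was close to equality except in i12, with 63.6% and 65.0%. The other 8 libraries lay between 52.3% and 57.7%, below both i12 libraries (adjusted p 0.0329). The call of Gab1 was lost without i12 parental replicate 2 (adjusted p 0.312), i12 parental replicate 1 (0.149), i10 parental replicate 2 (0.0791), i10 parental replicate 1 (0.0549), i7 parental replicate 1 (0.0718) or d6 parental replicate 2 (0.0509). The other 3 calls were kept without any single parental library.

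**Figure D2:**
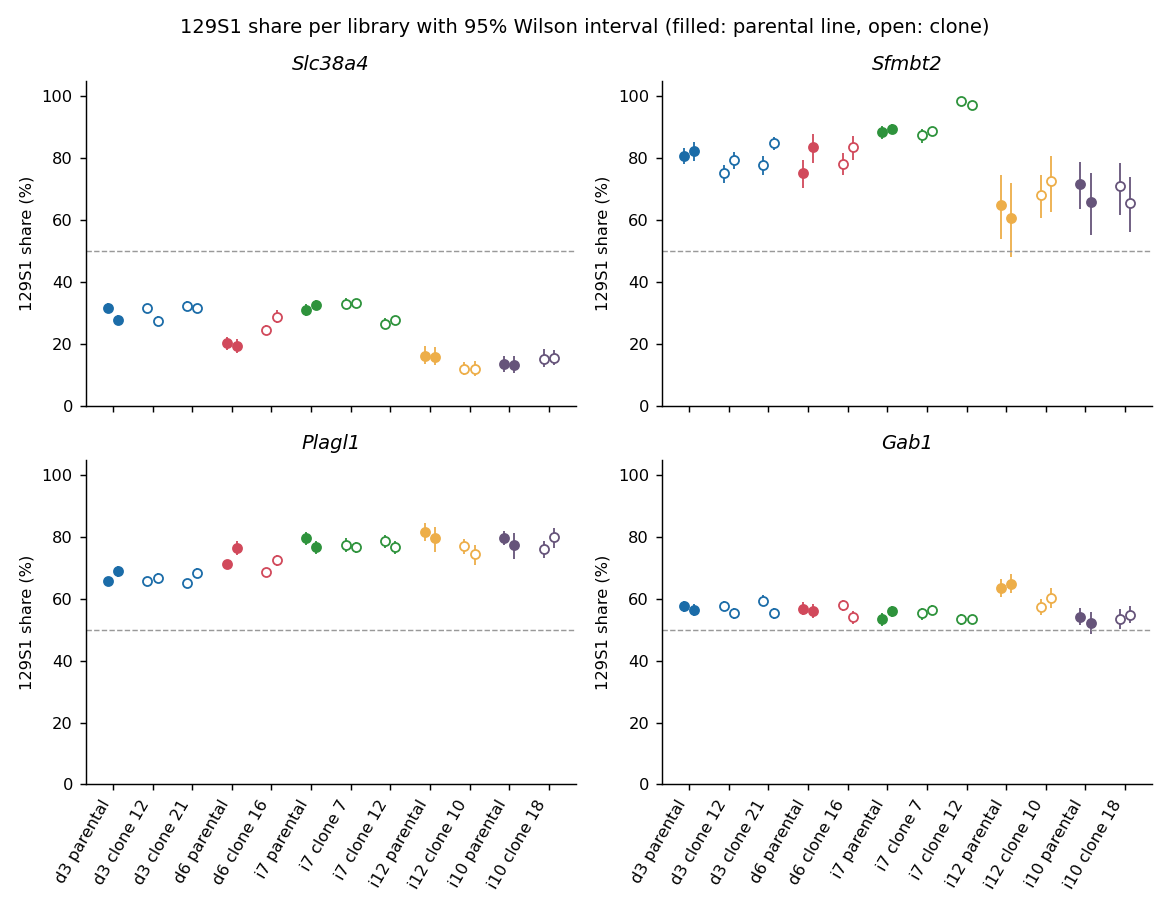
The 129S1 share (y axis, percent) of Slc38a4, Sfmbt2, Plagl1 and Gab1 in each library with its 95% Wilson interval, by group. Filled points are parental lines and open points clones. Slc38a4 lies between 11.8% and 33.3%, with all d3 and i7 libraries above all i10 and i12 libraries, and Sfmbt2 reaches 97.2% and 98.5% in i7 clone 12.

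The promoters of these 4 genes are shown because their allelic ratio differed between lines, and CpG dinucleotides are where mouse DNA is methylated. The sequences are from RefSeq on GRCm38.p6, from the window of 250 bases before to 50 bases after a transcript start. Only the stretch that overlaps no annotated exon is printed, 5′ to 3′ on the gene's strand, with each CpG in capitals. The Slc38a4 stretch is chr15:97055957-97056206 (minus strand), that of Sfmbt2 chr2:10372186-10372435 (plus), that of Plagl1 chr10:13090582-13090690 (plus) and that of Gab1 chr8:80880520-80880748 (minus).
Slc38a4: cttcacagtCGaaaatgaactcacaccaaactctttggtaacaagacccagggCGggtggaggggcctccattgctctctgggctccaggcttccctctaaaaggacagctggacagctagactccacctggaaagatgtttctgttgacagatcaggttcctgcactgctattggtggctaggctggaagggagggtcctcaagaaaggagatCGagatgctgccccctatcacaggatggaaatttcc
Sfmbt2: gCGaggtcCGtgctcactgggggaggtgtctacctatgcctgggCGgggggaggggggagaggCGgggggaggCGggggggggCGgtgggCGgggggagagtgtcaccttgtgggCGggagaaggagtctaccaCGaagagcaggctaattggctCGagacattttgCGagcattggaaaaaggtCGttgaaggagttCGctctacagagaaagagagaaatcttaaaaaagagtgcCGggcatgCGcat
Plagl1: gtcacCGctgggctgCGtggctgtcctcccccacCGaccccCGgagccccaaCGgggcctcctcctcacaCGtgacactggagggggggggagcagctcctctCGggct
Gab1: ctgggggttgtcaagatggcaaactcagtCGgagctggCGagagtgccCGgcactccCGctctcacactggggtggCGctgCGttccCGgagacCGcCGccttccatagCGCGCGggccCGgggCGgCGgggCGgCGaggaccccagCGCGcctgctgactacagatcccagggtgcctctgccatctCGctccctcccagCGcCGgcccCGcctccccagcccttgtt

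The Slc38a4 window of 300 bases held 5 CpG, and 62.0% of all windows held as many or more. Sfmbt2 had 16 (33.0% of windows), and Plagl1 and Gab1 had 26 each (16.9%). These are the windows of the printed stretches, and Sfmbt2 and Gab1 each had another window, with 9 and 28 CpG. Of the 37 genes, 29 had a RefSeq entry, with 46 windows between them. Their median was 16.5 CpG per window, against 7 over 32851 windows of all genes. The motif TGCCGC, which ZFP57 is known to bind when methylated, was searched on both strands. It was found in 11 of the 46 windows (23.9%) and in 11.6% of all windows. The motif holds a CpG itself and the windows were not matched for CpG number, so these percentages are not on equal terms. Of the windows of these 4 genes, 1 held the motif, that of Plagl1, outside the stretch printed above. Letters in a window do not show binding or methylation. Whether methylation has a part in the differences between lines was not tested.

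In total counts, 5 of the 30 tested genes differed between the parental lines, Sfmbt2, Slc38a4, Peg3, Zfp264 and Peg12, against 6.64% of all 16253 genes. At an unadjusted p under 0.05 there were 12, against 26.3%. The count depended on the fit. With a term for the replicate number (a replicate block), 11 were called, against 22.6% of all genes, and these added Plagl1, Mest, Mcts2, Ndn, Igf2r and Peg10. Without the low-count filter 11 were called as well, against 11.9% of all 30383 genes, with Snurf in place of Igf2r. In bulk libraries such as these, fewer cells with a transcript and less RNA per cell cannot be told apart.

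Sfmbt2 had the smallest adjusted p of the 5. The i7 parental line had 112 and 136 CPM, with 75.6 and 59.8 in d3, 38.5 and 38.8 in d6, 25.0 and 24.8 in i10 and 18.3 and 15.6 in i12. No line overlapped another (adjusted p 1.72e-05, edgeR). Slc38a4 was at 312 and 341 CPM in i7 and 282 and 269 in d3. It was at 162 and 191 in d6, 139 and 170 in i10 and 147 and 154 in i12, and these 3 lines lay below the other 2 (adjusted p 0.0012). The order of the lines was thus close to that of the 129S1 share for both genes, which is a description of 5 lines.

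The genes of the Peg3 domain did not follow each other. Peg3 was highest in the i12 parental line, at 84.7 and 136 CPM, with 83.6 and 77.7 in i10 and 57.3 and 81.3 in d6. It was lower in d3, at 50.8 and 23.1, and in i7, at 34.0 and 32.8 (adjusted p 0.00713). Zfp264 was at 19.3 and 14.3 CPM in d3, 14.8 and 14.2 in d6 and 14.1 and 11.4 in i7. It was at 7.82 and 12.1 in i10 and 6.66 and 6.12 in i12, which had the lowest libraries (adjusted p 0.027). Peg12, a regulator of the Wnt pathway in the Snrpn domain, was at 5.29 and 5.87 CPM in d3, and between 0 and 1.73 CPM in the other 8 libraries (adjusted p 0.0332). The call of Zfp264 was lost without i12 parental replicate 2 (adjusted p 0.109), i12 parental replicate 1 (0.0665) or i7 parental replicate 1 (0.0561). That of Peg12 was kept only without d6 parental replicate 2, i12 parental replicate 1 or i12 parental replicate 2, and was highest at 0.115 without d3 parental replicate 2.

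Some totals moved with the replicate number. Peg10, a gene derived from a retrotransposon, was higher in replicate 1 in 11 of 12 groups, and the higher replicate was a median of 3.99 times the lower. It had 138 and 33.9 CPM in d6 parental and 52.0 and 8.34 in d3 parental cells. Plagl1 was higher in replicate 1 in 12 of 12 groups (median ratio 1.58), and Mest in 11 (1.58). Commd1 was higher in replicate 2 in 11 of the 12. What the numbers stand for is not given in the labels. Peg10 was not called between the parental lines (adjusted p 0.162), and it was called with the replicate block (0.00102).

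Of 14 factors that place, hold or remove methylation, all were tested, and 1 differed between the parental lines, a share near the 6.64% of all genes. At an unadjusted p under 0.05 there were 5, against 26.3% of all genes. The gene called was Dnmt3l, a cofactor of the de novo methyltransferases (adjusted p 0.0244), whose level over all libraries was 1.41 to 147 CPM with a median of 32.2. None of the 14 was called in total counts in any clone (edgeR), with 1 at an unadjusted p under 0.05 in each d3 clone and none in the other 5. With the replicate block 5 were called between the parental lines, where 22.6% of all genes were, and Dnmt3l was called in i7 clone 12. Zfp57 was at 32.3 to 69.9 CPM over all libraries, Trim28 at 601 to 1719, Dnmt1 at 205 to 406 and Uhrf1 at 912 to 1655.

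**Figure D3:**
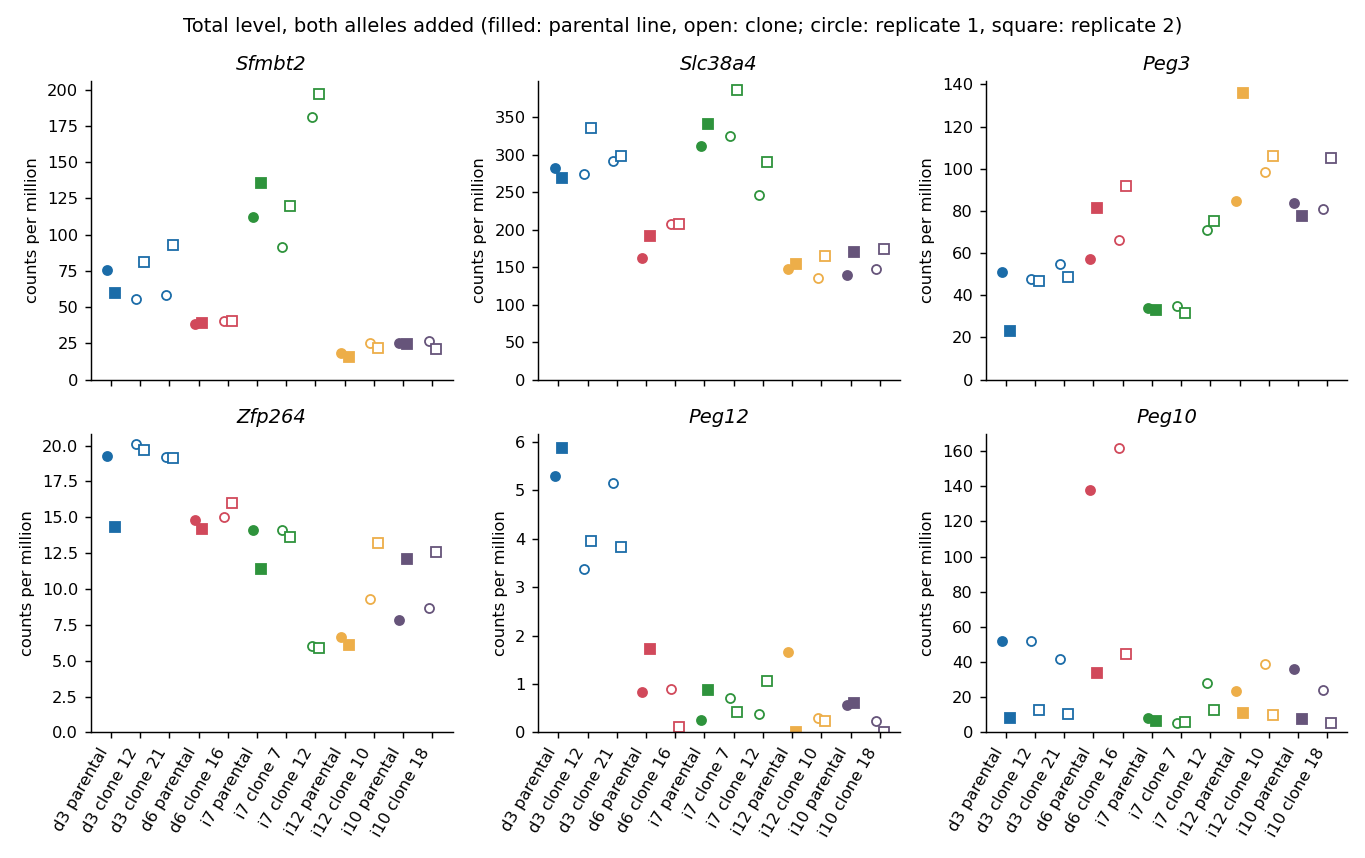
Total level (y axis, CPM, both alleles added) of Sfmbt2, Slc38a4, Peg3, Zfp264, Peg12 and Peg10 in each library, by group. Filled points are parental lines, open points clones, circles replicate 1 and squares replicate 2. Sfmbt2 is highest in i7 clone 12 (181 and 197), where Zfp264 is at 6.0 and 5.91, and Peg10 is split by replicate.

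The third question was what changed in a clone against its own parental line. In the allelic ratio the answer was 1 gene in 1 clone. Sfmbt2 became more 129S1-biased in i7 clone 12, where 1.91% of all 12774 genes were called (0.102% higher, 1.81% lower). No gene of the 37 lies on chromosome 19, which held 219 of the 244 genes called there, and outside it 0.203% of genes were called.

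In the i7 parental line, Sfmbt2 had 757 counts from 129S1 and 98 from CAST in replicate 1, and 1378 and 161 in replicate 2. In i7 clone 12 it had 1840 and 28 in replicate 1, and 2531 and 74 in replicate 2. The 129S1 share was 98.5% and 97.2% in the clone, with Wilson intervals of 97.8% to 99.0% and 96.4% to 97.7%. The parental line had 88.5% and 89.5%, and i7 clone 7 had 87.4% and 88.8%. Both clone 12 libraries lay above all of these, while clone 7 and the parental line overlapped. The log2 change of the ratio was 2.43 (SE 0.272, adjusted p 1.46e-05, edgeR).

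The 129S1 level was higher and the CAST level lower in the clone, though each allele alone was not tested. The 129S1 level was 185 ± 9.72 CPM in i7 clone 12 and 111 ± 15.9 in its parental line (mean ± SD, n = 2 libraries each). The CAST level was 4.16 ± 2.05 CPM in the clone and 13.6 ± 0.964 in the parental line. The total was 189 ± 11.8 CPM against 124 ± 16.8, or 0.61 in log2 (SE 0.228), which did not pass the test (adjusted p 0.621) and passed it narrowly with the replicate block (0.0486). The median share of the 10 genes around Sfmbt2 was 55.5% and 56.7% in this clone, at the upper end of the 50.3% to 56.7% seen over all libraries. The trophoblast markers, of a lineage where Sfmbt2 is known to be high, summed to 4.70 and 4.93 CPM in the clone and 2.65 and 2.76 in its parental line. Over all libraries, Krt7 and Elf5 had at most 4 and 1 counts, while Cdx2 had 0 to 110 and Eomes 3 to 205. The feeder markers summed to 25.1 and 25.7 CPM against 16.6 and 17.2. Their part in the result was not tested.

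**Figure D4:**
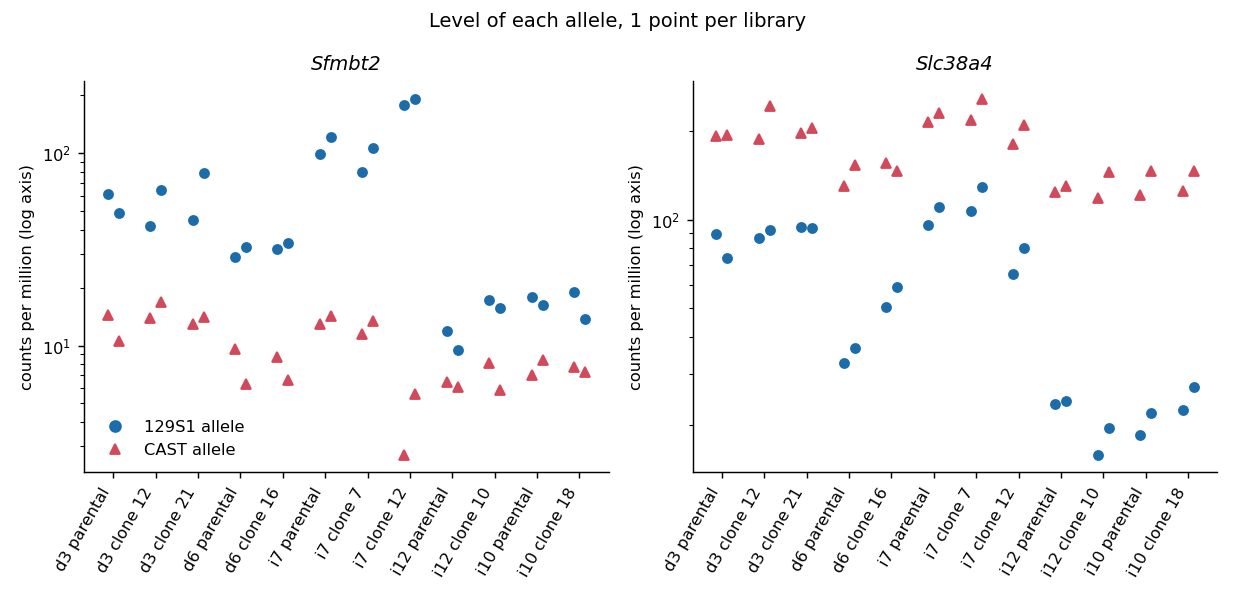
Level of the 129S1 allele (circles) and the CAST allele (triangles) of Sfmbt2 and Slc38a4 in each library (y axis, CPM on a log axis), by group. In i7 clone 12 the Sfmbt2 CAST level is 2.71 and 5.61, the lowest of all libraries, and the 129S1 level is 178 and 192, the highest.

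None of the 22 genes was called in the other 6 clones in edgeR. The d3 clones had 0.0548% (clone 12) and 3.08% (clone 21) of all genes called. In clone 21, 372 of the 393 genes called lie on chromosome 14, where no member was tested, and 0.170% of the genes elsewhere were called. Of all genes, d6 clone 16 had 0.0470%, i7 clone 7 and i12 clone 10 had 0.00783% each, and i10 clone 18 had 0%. Calls at an unadjusted p under 0.05 were made for Copg2 alone in d3 clone 12 (4.34% of all genes) and in d3 clone 21 (6.31%), 1 gene each. They were made for 1 gene, Slc38a4, in d6 clone 16 (2.94%) and for 2, Peg3 and Commd1, in i7 clone 7 (1.80%). For 4 genes, Slc38a4, Gab1, Plagl1 and Jade1, they were made in i12 clone 10 (4.67%), and for 0 in i10 clone 18 (2.93%). In i7 clone 12 there were 3 such genes, Sfmbt2, Slc38a4 and Mcts2 (5.90%). With the replicate block, Slc38a4 was called in d6 clone 16 (adjusted p 0.0398), where 0.274% of all genes were. Copg2 passed the adjusted test in both d3 clones when d3 parental replicate 1 was left out, so its count there depended on that library. The widest changes came from few reads: Commd1, with at most 7 CAST counts in a library, had a log2 change of -2.00 (SE 0.835) in i7 clone 7, and Peg13, a noncoding RNA inside Trappc9, 2.12 (SE 1.31) in i10 clone 18. The median change of the 22 genes was between -0.07 and 0.12 in the 7 clones, and that of all genes between -0.02 and 0.04.

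**Figure D5:**
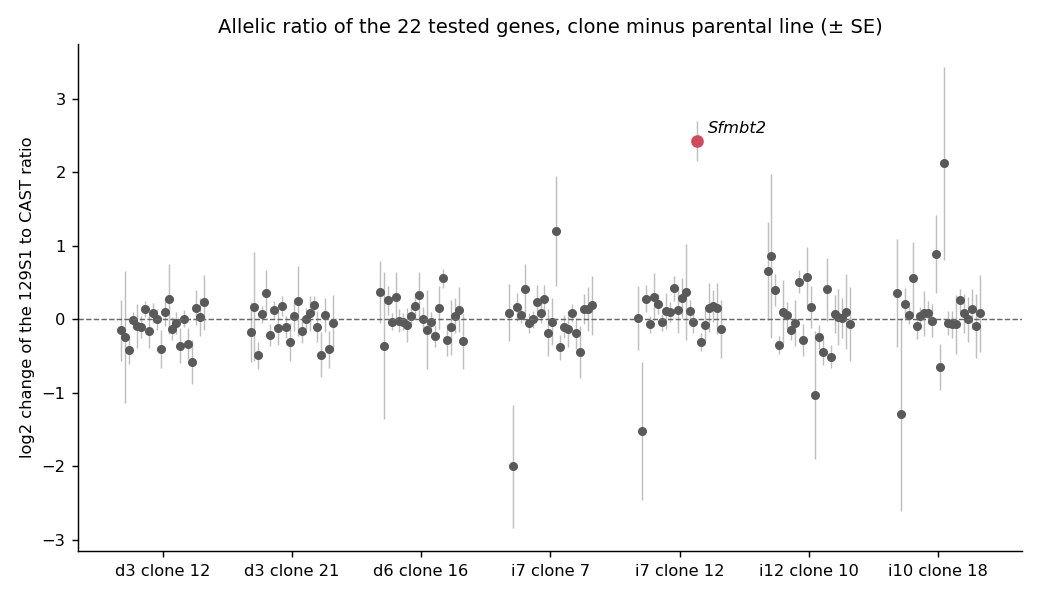
Log2 change of the 129S1 to CAST ratio in each clone against its parental line (y axis) for the 22 tested genes, in alphabetical order within a clone, with standard errors. The red point is Sfmbt2 in i7 clone 12 (2.43), the gene that passed the test.

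Slc38a4 was the 1 gene called when the ratio changes of the clones were compared between recombinations. In d6 clone 16 its 129S1 share was 24.5% and 28.7%, above 20.1% and 19.2% in the parental line (log2 change 0.56, SE 0.129, adjusted p 0.585). In i12 clone 10 it was 11.8% and 11.9%, below 16.0% and 15.7% (-0.51, SE 0.158, adjusted p 0.856). In i10 clone 18 it was 15.2% and 15.5%, above 13.3% and 13% (0.26, SE 0.158, adjusted p 1). In i7 clone 12 it was 26.5% and 27.6%, below 30.8% and 32.5% (-0.31, SE 0.122, adjusted p 0.527). In these 4 clones no library overlapped its parental line, yet no single comparison passed the test without the replicate block. With it, the change in d6 clone 16 passed (0.55, SE 0.114, adjusted p 0.0398), and the other 3 did not.

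The remaining 3 clones lay on or next to their parental lines. For d3 the share was 31.5% and 27.5% (clone 12) and 32.3% and 31.4% (clone 21), which overlapped the parental 31.6% and 27.6%. For i7 clone 7 it was 32.9% and 33.3%, just above its parental line and also without overlap (log2 change 0.09, SE 0.121). The F test of whether the effects of the 5 recombinations differ was called for Slc38a4 (unadjusted p 4.46e-04, adjusted p 0.0194), 1 of 22 genes, against 2.43% of all genes. It averaged the 2 clones of d3 and of i7, and d6, i10 and i12 had 1 clone each. A recombination effect therefore cannot be told apart from a difference between clones. Calls in d3 clone 21 and i7 clone 12 lay mostly on chromosomes 14 and 19. Where the genes called here lie was not counted, and the adjusted p depends on how many genes are called. At an unadjusted p under 0.05 there were 3, with Sfmbt2 and Copg2, against 5.93%. The call of Slc38a4 was lost without d6 clone 16 replicate 2 (adjusted p 0.0851), d6 parental replicate 1 (0.0552) or 2 (0.0827), i12 parental replicate 1 (0.0704) or 2 (0.054), or i12 clone 10 replicate 1 (0.0794) or 2 (0.0559). With the replicate block Sfmbt2 (adjusted p 0.0077) was called beside Slc38a4 (0.00917), against 2.83% of all genes. Copg2 was called as well without d3 parental replicate 1, and Sfmbt2 without i7 clone 12 replicate 2.

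In total counts, 0 of the 30 tested genes were called in any of the 7 clones in edgeR. With the replicate block, 6 were called in i7 clone 12 and none in the other 6 clones. Of all 16253 genes, the share called was 0.0123% (clone 12) and 0.0554% (clone 21) for d3, 0.0123% for d6 clone 16 and 0.0246% for i7 clone 12. No gene at all (0%) was called in i7 clone 7, i12 clone 10 or i10 clone 18. The unadjusted p was under 0.05 for 2 of the 30 in d3 clone 12 (Copg2 and Commd1, against 4.39% of all genes) and for 1 in d3 clone 21 (Grb10, 2.38%). It was so for 5 in i7 clone 12 (Zfp264, Peg3, Sfmbt2, Grb10 and Trappc9, 6.19%) and for 3 in i12 clone 10 (Zfp264, Usp29 and Mkrn3, 1.31%). It was so for 1 in i10 clone 18 (Sgce, 0.788%) and for 0 in d6 clone 16 (0.751%) and i7 clone 7 (0.295%). DESeq2 called Peg3 and Zfp264 in i7 clone 12, against 0.468% of all genes, and none of the genes in the other 6 clones.

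The 6 genes called in i7 clone 12 with the replicate block stood beside 6.27% of all genes called there, so many other genes passed this fit as well. Peg10, Peg3, Sfmbt2 and Impact, a regulator of translation, were higher in the clone, and Zfp264 and Trappc9, a subunit of a vesicle tethering complex, were lower. Peg10 was at 28.3 and 12.7 CPM in the clone and 8.02 and 6.63 in the parental line, or 1.40 in log2 (SE 0.255, adjusted p 0.00371). Impact was at 193 and 179 CPM against 132 and 136 (0.47, SE 0.13, adjusted p 0.04). Trappc9 was at 27.0 and 37.0 CPM against 57.7 and 50.8 (-0.77, SE 0.155, adjusted p 0.00738). The groups did not overlap for any of these 3 genes. Same-numbered libraries within a recombination deviated together in totals, with correlations over genes of 0.40 to 0.71, and the labels do not say what they share.

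These neighbours in the Peg3 domain had opposite values in i7 clone 12. Peg3 was at 71.0 and 75.3 CPM in the clone and 34.0 and 32.8 in the parental line, or 1.13 in log2 (SE 0.296, adjusted p 0.276, and 0.00437 with the replicate block). Zfp264 was at 6.0 and 5.91 CPM against 14.1 and 11.4, or -1.09 in log2 (SE 0.255, adjusted p 0.228, and 0.00316 with the block). The groups did not overlap for either gene, and the other clone of i7 was at 34.8 and 31.4 CPM for Peg3 and 14.1 and 13.6 for Zfp264. Neither was called in the allelic ratio, whose log2 changes were 0.11 (SE 0.155) for Peg3 and 0.15 (SE 0.344) for Zfp264. Leaving out d3 parental replicate 1, in which Peg3 was at 50.8 CPM against 23.1 in replicate 2, gave a call of Peg3 in d3 clone 21 and of Jade1 in d3 clone 12. None of the 30 genes was called in the test of whether the effects of the recombinations differ, against 0.0123% of all genes (2 at an unadjusted p under 0.05, Zfp264 and Sgce, against 0.689%), and DESeq2 called none.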

How the data were processed

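RNA was sequenced from poly(A) libraries of 24 samples, read from a single end, with a stranded kit per the labels' protocols. The submitters' processing notes name STAR, SAMtools and the build mm10. The deposited table holds whole-number counts per gene, with a 129S1 and a CAST column per library per the file headers. The counting program, its use of strand and the handling of reads without an informative variant are not given in the sources used here. Of the 48985 identifiers, 48838 matched GENCODE M21 without the version, and the other 147 held 0.0148% of the counts.

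Both alleles were added for totals, and tested with edgeR 4.0.16 in R 4.3.3 (TMM, filterByExpr, quasi-likelihood test, 1 fit of 12 groups, 12 residual degrees of freedom, coefficient of variation 0.246). The ratio was tested in 1 fit of the 129S1 and CAST columns, where each library had its own term and each group a term for the allele (coefficient of variation 0.0841). Genes needed a mean of 20 counts or more. Adjusted p-values are Benjamini-Hochberg over all genes tested, with calls under 0.05. Shares need at least 10 counts and have 95% Wilson intervals. No replicates were copies: their counts differed with a chi-square of 9.77 to 54.8 per degree of freedom.

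On simulated data, 13.5% of 2-fold and 88% of 4-fold changes of totals were called for d3 clone 12 (15666 genes), and 66% and 98% of such changes of the ratio for i7 clone 12 (12747 genes). DESeq2 1.42.0, other filters, scalings, a term for the replicate number and leaving out single libraries were the alternatives.

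Values per library are given for genes biased in all parental libraries or called in a comparison, at most 12 per comparison by smallest p, and overlapping genes are named together. The other genes are given by ranges. Peg10 and the genes named at an unadjusted p were chosen after their values were seen. The members and lists were chosen with earlier results of these data known. Python 3.11.15 with pandas 2.3.3 and matplotlib 3.10.9 did the rest.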

Additional observations from a re-analysis of the deposited data

Results flagged for a closer look

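The Slc38a4 change of allelic ratio from parental line to clone differed between the 5 recombinations by the F test in edgeR (adjusted p 0.0194). Clones 12 and 21 of d3 were averaged, as were clones 7 and 12 of i7, and the other recombinations had a single clone each. An effect of recombination cannot be told apart from a difference between clones. The log2 change of the 129S1 to CAST ratio was 0.56 in d6 clone 16, 0.26 in i10 clone 18, -0.31 in i7 clone 12 and -0.51 in i12 clone 10. It was 0.01 in d3 clone 12, 0.20 in d3 clone 21 and 0.09 in i7 clone 7. The result was lost in 7 of the 24 fits that left out 1 library.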

How the results depend on the processing

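The Sfmbt2 ratio in i7 clone 12 passed the test under every alternative tried, with log2 changes of 2.40 to 2.43 under other filters and scalings and with the replicate block, and 2.07 to 3.01 with 1 library left out. Commd1 stayed the only gene biased to 1 allele with a minimum of 20 or 50 counts or a limit of 90%. The ratio calls of Slc38a4, Plagl1, Sfmbt2 and Gab1 between parental lines were kept under the filters and scalings tried. Jade1 was not called against equality with at least 10 counts per allele (-0.10), a mean of 100 counts (-0.09) or the same library size for both alleles (-0.08).

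Totals depended more on the fit. In i7 clone 12, 2 genes were called by DESeq2, 2 without the low-count filter (Peg3 and Peg10), and 1 (Peg3) in a fit of only those libraries, against 0 in the fit reported first. Between parental lines, 11 were called without the filter, against 5, and 7 by DESeq2. The cause was not tested.

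The labels give replicate numbers but not what they pair. Deviations of same-numbered libraries correlated within a recombination with r of 0.40 to 0.71 in totals (9 pairs of groups) and 0.09 to 0.38 in the ratio, and between recombinations with -0.22 to 0.64 and -0.26 to 0.17 (57 pairs). With the replicate block, the members called in totals were 6 in i7 clone 12 (Peg3, Impact, Trappc9, Sfmbt2, Peg10 and Zfp264) and 11 between parental lines. In the ratio they were 1 in d6 clone 16 (Slc38a4) and 2 for the difference between recombinations (Slc38a4 and Sfmbt2). It changed no other count by over 1.5 times.

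With 1 library left out, the lone replicate is assumed to vary like the other groups, and the ratio fits kept the dispersion trend of all libraries. The counts of called genes ranged from 0 to 1 in totals and ratio of d3 clone 12 and of d3 clone 21, 3 to 5 for totals and 3 to 5 for ratios between parental lines, 17 to 20 against equality, and 0 to 2 for the ratio between recombinations. Those of the other clones did not change.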
